A study of Mus musculus with 8 samples.

Results

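The 10 antigen presentation genes described here were taken by symbol from a liver count table of 46078 genes, and divide into 5 genes of the MHC class II side (H2-Aa, H2-Ab1, H2-Eb1, Cd74 and Ciita) and 5 of the class I side (H2-K1, H2-D1, B2m, Tap1 and Psmb8). Bulk liver RNA-seq was performed on 5 mice labelled wild-type (WT) and 3 labelled Rbfox2 knockout (Rbfox2 KO), all of which ate control diet, drank 30% (w/v) fructose over 22 weeks and were fasted before collection. Per the study's methods, both alleles of Rbfox2, which encodes an RNA-binding splicing factor, were floxed in its liver-specific knockouts, and Cre was driven by the albumin promoter, so deletion was directed to hepatocytes while other liver cells kept the gene. The study's control animals for this cross carried the same floxed alleles without Cre, the mice were young adults when the diet began, and males were used unless stated otherwise. The comparison addresses which transcripts change when Rbfox2 is lost from hepatocytes under a fructose diet, and here whether the class I and class II genes differed.

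MHC class II molecules display peptides from endocytosed proteins to CD4+ T cells. They are made mainly by dendritic cells, macrophages and B cells, and in liver also by Kupffer cells and sinusoidal endothelium. Their α and β chains assemble with the invariant chain, and their genes are switched on together by the coactivator CIITA, which docks on RFX, CREB and NF-Y proteins at a shared promoter module. MHC class I molecules are made by nearly all nucleated cells, hepatocytes included, and display peptides that the proteasome cuts and the TAP transporter carries into the endoplasmic reticulum. Interferon-γ raises both sides.

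All 10 genes passed the filter on low counts, and no difference between genotypes passed the test in any of them. In the edgeR quasi-likelihood test 0 of 10 had an adjusted p under 0.05, as did 0 of all 14654 genes tested (0%). At an unadjusted p under 0.05 there were 0 of 10 members against 694 of all tested genes (4.74%, made up of 2.33% lower and 2.41% higher in Rbfox2 KO). The value ranges of WT and Rbfox2 KO overlapped for 10 of 10 members, whereas they were separate for 543 tested genes (3.71%), and for 1.82% with Rbfox2 KO lower. DESeq2 called 59 genes (0.403%), again with 0 members among them. The members varied instead from mouse to mouse, with WT 1 and Rbfox2 KO 1 the highest livers of their groups for 9 of the 10 genes and another arrangement for Ciita.

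Total counts were between 24829693 and 37823155 per library, and 3 counts, taken as the lowest level a library can show, corresponded to 0.0838 to 0.118 CPM (counts relative to the TMM-scaled library size). Rbfox2 itself was at 13.9, 20.5, 19.0, 17.9 and 23.1 CPM in WT 1 to 5 and at 6.83, 8.61 and 12.4 CPM in Rbfox2 KO 1 to 3. Every Rbfox2 KO liver was below every WT liver, with a log2 fold change of -1.03 (95% interval -1.48 to -0.57, edgeR adjusted p = 0.328, DESeq2 adjusted p = 0.0019). The summed level of 5 hepatocyte markers was 67139 to 73545 CPM in WT and 62986 to 74157 CPM in Rbfox2 KO livers, so the tissue label was met in all 8. Some libraries stood apart in genes of other tissues. The summed level of 9 pancreatic exocrine genes was 430.9 CPM in Rbfox2 KO 1, 16.3 CPM in WT 1 and 4.78 to 5.89 CPM in the other 6 livers, where 8 of the 9 genes reached 0 in at least 1 library. Most of the sum in these 6 livers was Cela1, at 4.68 to 5.74 CPM, against 6.94 CPM in WT 1 and 27.1 CPM in Rbfox2 KO 1. Amy2a5 was at 250 CPM in Rbfox2 KO 1, 5.02 CPM in WT 1 and 0 to 0.0969 CPM in the other 6. The summed level of 6 skeletal muscle genes was 34.5, 14.5, 6.78, 198 and 284 CPM in WT 1 to 5 and 163, 1.06 and 5.42 CPM in Rbfox2 KO 1 to 3. The part of these cells in the values below was not tested, and member differences are therefore also given without WT 1 and Rbfox2 KO 1. In bulk tissue, fewer cells of a type and less RNA per cell cannot be told apart.

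H2-Aa, H2-Ab1 and H2-Eb1 encode the chains of the class II molecules I-A and I-E, and all lie in the MHC on chromosome 17 of GRCm38. H2-Aa (ENSMUSG00000036594, α chain of I-A) spans 34282744 to 34287823 on the minus strand, H2-Ab1 (ENSMUSG00000073421, its β chain) spans 34257689 to 34269419 on the plus strand, and H2-Eb1 (ENSMUSG00000060586, β chain of I-E) spans 34305867 to 34316674 on the plus strand. RefSeq promoter sequence was matched for 7 of the 10 members, H2-Aa and H2-Eb1 among them. The 200 bases before the start of these 2 genes are printed 5′ to 3′ on the gene's strand because the shared module of class II promoters lies in this region. They lie at chr17:34287824-34288023 (minus strand) and chr17:34305667-34305866 (plus strand) of GRCm38.p6. Capitals mark matches to the Y box CTGATTGG, the CCAAT box and the cyclic AMP response element core TGACG, searched on both strands, where the Y box contains a CCAAT box.
H2-Aa: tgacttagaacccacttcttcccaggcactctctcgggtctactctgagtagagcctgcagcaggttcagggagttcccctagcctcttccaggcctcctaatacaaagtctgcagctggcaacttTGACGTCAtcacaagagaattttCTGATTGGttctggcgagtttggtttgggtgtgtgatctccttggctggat
H2-Eb1: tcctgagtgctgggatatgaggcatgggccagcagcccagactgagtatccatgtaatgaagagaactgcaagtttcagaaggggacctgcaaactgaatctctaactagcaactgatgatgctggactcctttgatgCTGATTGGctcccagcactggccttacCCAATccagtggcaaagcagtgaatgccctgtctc
The Y box ended 44 bases before the start of H2-Aa and 55 bases before that of H2-Eb1. In H2-Aa, TGACG matched on both strands as TGACGTCA, between 74 and 67 bases before the start. CTGATTGG occurred in 3.54% of 32851 RefSeq promoter windows of this length, CCAAT in 29.3% and TGACG in 15.7%. Among the 7 matched members, CTGATTGG was found in H2-Aa, H2-Eb1 and H2-D1.

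The 3 class II chain genes were at nearly the same level in both genotypes. H2-Aa was at 41.1, 24.7, 14.2, 18.0 and 26.9 CPM in WT 1 to 5 and at 30.9, 22.7 and 20.7 CPM in Rbfox2 KO 1 to 3, with group means of 24.99 ± 10.3 CPM (SD, n = 5) for WT against 24.8 ± 5.40 CPM (SD, n = 3) for Rbfox2 KO. WT 1 was highest and WT 3 lowest of all 8 livers, and the 3 Rbfox2 KO values lay inside the WT range. The log2 fold change was -0.011 (95% interval -0.72 to 0.70), and 0.040 without WT 1 and Rbfox2 KO 1. H2-Ab1 was at 43.5, 24.6, 16.0, 17.3 and 23.3 CPM in WT 1 to 5 and at 32.2, 23.5 and 18.9 CPM in Rbfox2 KO 1 to 3. WT 1 and Rbfox2 KO 1 were again the highest of their groups, and WT 3 the lowest of all. Its log2 fold change was -0.0038 (95% interval -0.75 to 0.74), and 0.052 without these 2 livers. H2-Eb1 was at 37.8, 20.9, 12.6, 14.4 and 19.9 CPM in WT 1 to 5 and at 28.2, 18.7 and 15.6 CPM in Rbfox2 KO 1 to 3. The order of the groups' highest and lowest livers was that of H2-Ab1, with a log2 fold change of -0.018 (95% interval -0.84 to 0.81), and 0.0062 without WT 1 and Rbfox2 KO 1. The depth was ample for these genes, at 360 to 1180 reads per library, and it was the spread between livers that left differences from 0.605-fold to 1.63-fold inside the 95% interval of H2-Aa.

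Cd74 encodes the invariant chain, the chaperone that occupies the class II groove on its way to the endosome. Cd74 (ENSMUSG00000024610, chromosome 18) was at 92.2, 57.4, 40.4, 40.7 and 62.0 CPM in WT 1 to 5 and at 67.2, 56.2 and 46.8 CPM in Rbfox2 KO 1 to 3. It had the same highest and lowest livers as the chains it binds, and the Rbfox2 KO values again lay inside the WT range. The log2 fold change was -0.046 (95% interval -0.65 to 0.55), and 0.028 without WT 1 and Rbfox2 KO 1.

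Ciita (ENSMUSG00000022504, chromosome 16, 10480059 to 10528418, plus strand) encodes the coactivator without which class II genes are silent. Its values were arranged differently in that WT 1 was not the highest WT liver. Ciita was at 0.812, 1.26, 0.632, 0.768 and 1.57 CPM in WT 1 to 5 and at 0.909, 0.550 and 0.531 CPM in Rbfox2 KO 1 to 3, which rested on only 14 to 53 reads per library. WT 5 and WT 2 were the highest livers, and Rbfox2 KO 2 and 3 were the lowest, but Rbfox2 KO 1 was above WT 1, WT 3 and WT 4. WT livers averaged 1.01 ± 0.391 CPM (SD, n = 5), against 0.663 ± 0.213 CPM (SD, n = 3) for Rbfox2 KO. The log2 fold change of -0.60 (SE 0.36, 95% interval -1.41 to 0.20) was the largest of the 10 members and did not pass the edgeR test (adjusted p = 1). Without WT 1 and Rbfox2 KO 1 it was -0.98 (edgeR adjusted p = 0.98, the only such fit in which a member had an unadjusted p under 0.05), without WT 5 it was -0.39, and without WT 2 it was -0.515.

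B cells express Ciita, and their markers had the same 2 highest WT livers. The summed level of 5 B cell markers (Cd79a, Cd79b, Ms4a1, Ighm and Cd22) was 9.23, 125, 7.62, 24.6 and 131 CPM in WT 1 to 5 and 9.19, 7.23 and 17.6 CPM in Rbfox2 KO 1 to 3. WT 2 and WT 5 were the highest WT livers for 5 of 5 markers, a pattern that 14.4% of all tested genes showed. The pattern was not limited to B cell genes. It was shown by 3 of 5 monocyte, 3 of 7 dendritic cell and 2 of 6 T and NK cell markers. Genes for RFX, NF-Y and CREB proteins showed it in 4 of 7, and those of the interferon-γ axis in 4 of 11. The pan-leukocyte gene Ptprc showed it too, against 1 of 7 Kupffer cell and macrophage markers and 0 of 12 class I pathway genes. No B cell marker was at 0 in any library, and Ighm, the heavy chain of IgM, made up most of the sum, at 114 and 122 CPM in WT 2 and WT 5 against 5.50 to 21.6 CPM in the other 6 livers. Between genotypes, 5 of 5 B cell markers had an estimate below 0, at a median log2 fold change of -1.58. In edgeR 0 of them passed adjustment, and 2 of 5 had an unadjusted p under 0.05, against 4.74% of all tested genes. The value ranges of the genotypes overlapped for each marker. The part of B cells in the Ciita values was not tested.

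**Figure D1:**
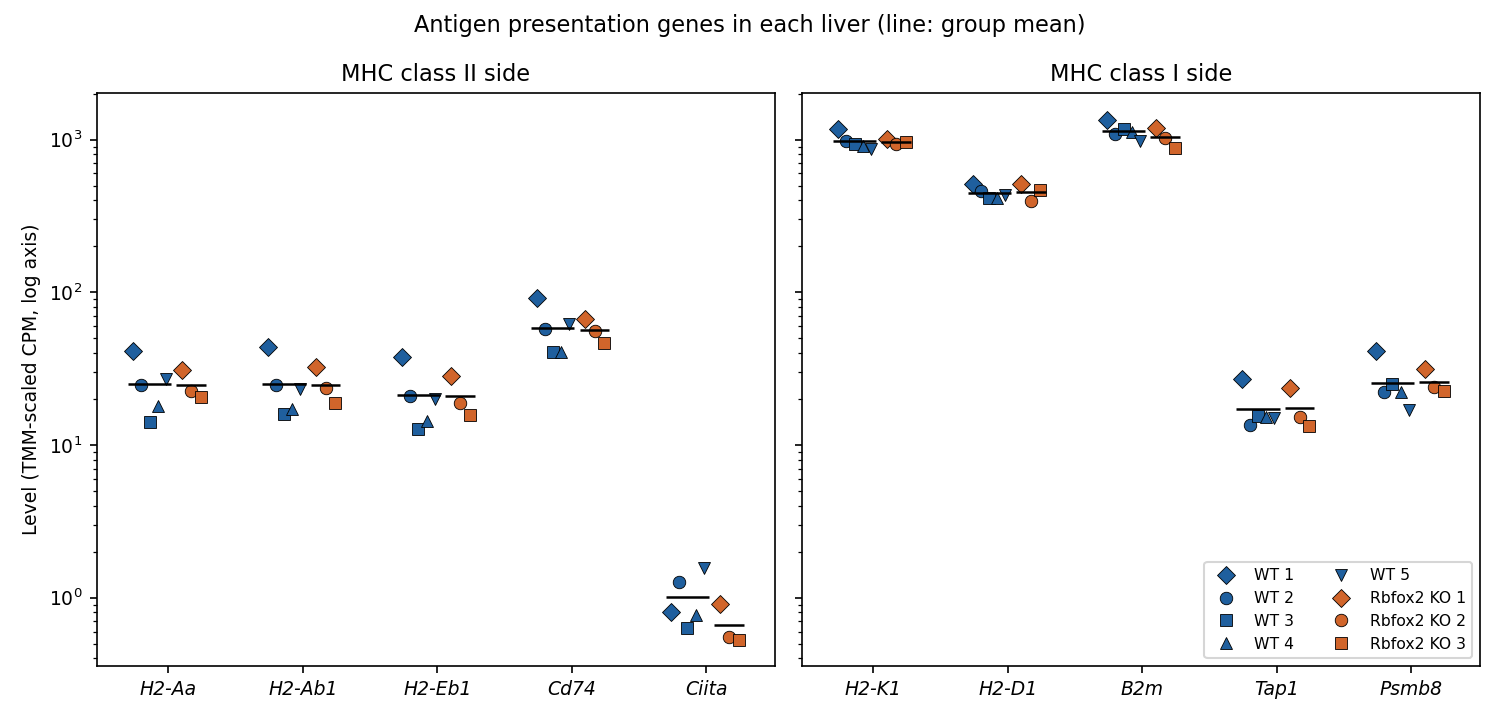
Level of each of the 10 genes in each liver, in TMM-scaled CPM on a log axis, with class II genes on the left and class I genes on the right; blue symbols are WT, orange symbols are Rbfox2 KO, symbol shape gives the sample number and black lines are group means. WT 1 and Rbfox2 KO 1 (diamonds) lie at the top of their groups for 9 genes, while WT 5 and WT 2 lie at the top for Ciita.

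On the class I side, H2-K1 (ENSMUSG00000061232, chromosome 17, 33996017 to 34000347, minus strand) and H2-D1 (ENSMUSG00000073411, chromosome 17, 35262730 to 35267499, plus strand) encode the heavy chains of the classical class I molecules K and D. B2m (ENSMUSG00000060802, chromosome 2, 122147686 to 122153083, plus strand) encodes β2-microglobulin, the light chain with which every heavy chain pairs. The promoters of H2-K1 and B2m are shown because they differ from the class II promoters above in carrying letters of an NF-κB site or an interferon response element, and they lie at chr17:34000348-34000547 (minus strand) and chr2:122147487-122147686 (plus strand) of GRCm38.p6. Capitals mark the enhancer A site GGGATTCCC, the interferon elements GAANNGAAA and GAAANNGAA on either strand, and the TGACG and CCAAT letters searched above.
H2-K1: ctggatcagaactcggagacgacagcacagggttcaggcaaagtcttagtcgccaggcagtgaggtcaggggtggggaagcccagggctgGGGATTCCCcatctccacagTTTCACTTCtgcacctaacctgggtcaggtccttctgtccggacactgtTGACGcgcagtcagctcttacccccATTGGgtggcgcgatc
B2m: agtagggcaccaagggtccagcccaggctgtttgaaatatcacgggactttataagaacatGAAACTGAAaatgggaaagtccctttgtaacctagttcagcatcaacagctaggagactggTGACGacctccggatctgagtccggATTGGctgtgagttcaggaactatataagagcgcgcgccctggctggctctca
GGGATTCCC occurred in 70 of 32851 windows (0.213%), those of H2-K1 and H2-D1 among them, the latter counted from a RefSeq start 364 bases inside the annotated gene. GAANNGAAA was found in the same 2 members and in 5% of all windows, and GAAANNGAA in B2m and in 5.57% of all windows. These 2 patterns can overlap each other but did not in the members. Such matches are descriptions of sequence and not of factor binding. TGACG was present in H2-K1, H2-D1, B2m and Tap1, and none of the 6 motifs was found in the window of Psmb8, whose RefSeq start was 474 bases from the annotated one.

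The heavy and light chains were the most evenly expressed members. H2-K1 was at 1174, 983, 938, 911 and 872 CPM in WT 1 to 5 and at 1008, 929 and 967 CPM in Rbfox2 KO 1 to 3. WT 1 was the highest and WT 5 the lowest of the 8 livers, and the log2 fold change was -0.012 (95% interval -0.29 to 0.27), or 0.027 without WT 1 and Rbfox2 KO 1. H2-D1 was at 508, 463, 417, 412 and 434 CPM in WT 1 to 5 and at 509.5, 395 and 466 CPM in Rbfox2 KO 1 to 3. Rbfox2 KO 1 and WT 1 were almost equal at the top, Rbfox2 KO 2 was lowest, and the log2 fold change was 0.032 (95% interval -0.23 to 0.30), or -0.0099 without the same 2 livers. B2m was at 1354, 1082, 1176, 1118 and 985 CPM in WT 1 to 5 and at 1197, 1031 and 879.9 CPM in Rbfox2 KO 1 to 3. Rbfox2 KO 3 was the lowest liver here and Rbfox2 KO 1 was above 4 of the 5 WT livers, with a log2 fold change of -0.14 (95% interval -0.46 to 0.18), or -0.20 without WT 1 and Rbfox2 KO 1. Heavy chain genes are near-identical in part: 8.11% of the 50-base words of the longest H2-K1 transcript and 14.3% of those of H2-D1 also occurred in transcripts of other genes, among them H2-Q1 and, for H2-K1, H2-D1 and H2-T23, so these counts depend on how shared reads were assigned. B2m, H2-Ab1, H2-Eb1, Cd74, Ciita and Psmb8 shared 0% of such words.

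Tap1 and Psmb8, neighbours in the MHC, encode a subunit of the peptide transporter and a catalytic subunit of the immunoproteasome. Tap1 (ENSMUSG00000037321, chromosome 17, 34187553 to 34197225, plus strand) was at 27.0, 13.4, 15.5, 15.3 and 15.0 CPM in WT 1 to 5 and at 23.7, 15.2 and 13.4 CPM in Rbfox2 KO 1 to 3. WT 1 and Rbfox2 KO 1 stood clear of the other 6 livers, and WT 1 was 1.78 times the median of the other WT livers. The log2 fold change was 0.017 (95% interval -0.56 to 0.60), or -0.057 without these 2 livers. Psmb8 (ENSMUSG00000024338, chromosome 17, 34197721 to 34201454, plus strand) was at 41.2, 22.2, 24.9, 22.2 and 16.9 CPM in WT 1 to 5 and at 31.6, 24.0 and 22.5 CPM in Rbfox2 KO 1 to 3. The same 2 livers were highest and WT 5 was lowest, with a log2 fold change of 0.033 (95% interval -0.55 to 0.62), or 0.11 without WT 1 and Rbfox2 KO 1.

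**Figure D2:**
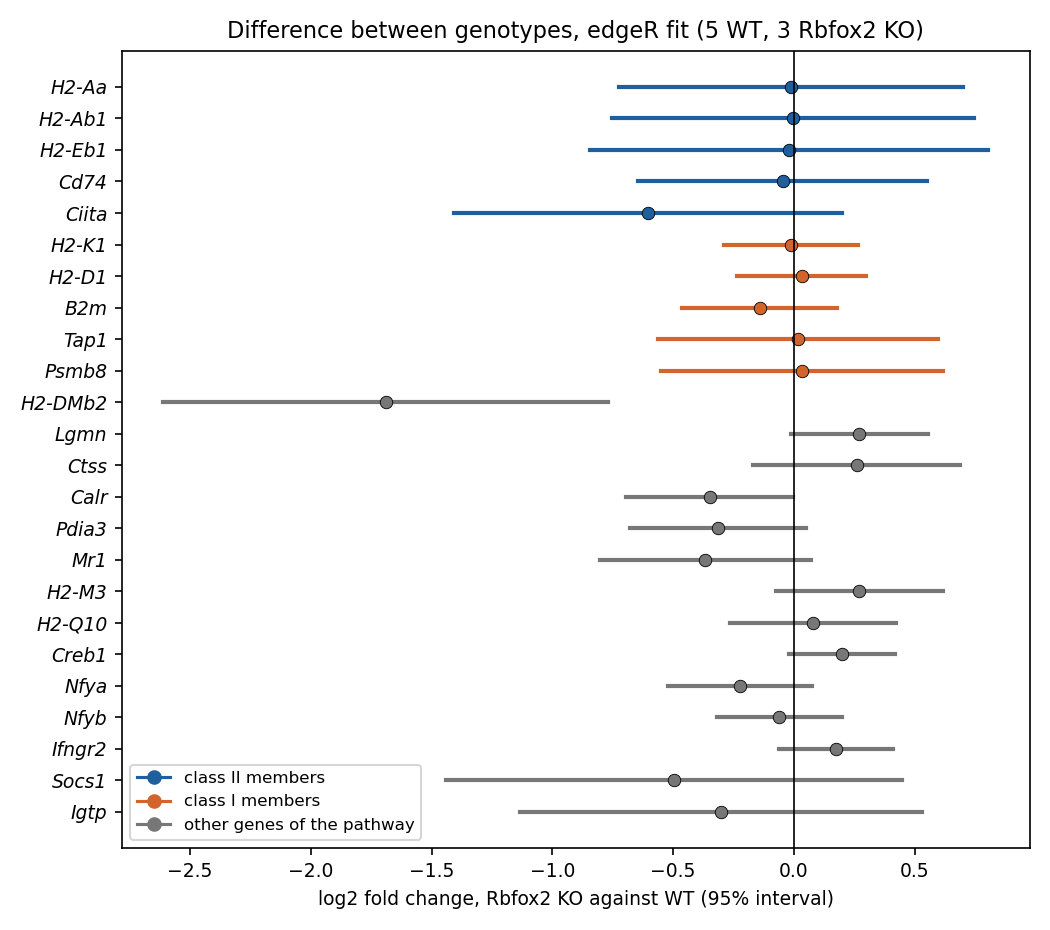
Log2 fold change of Rbfox2 KO against WT from the edgeR fit for the 10 members (class II blue, class I orange) and 14 other genes of the pathway (grey); points are estimates and bars are 95% intervals. The intervals of all 10 members cross 0, and that of H2-DMb2 (-2.61 to -0.77) lies farthest from it.

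Levels of different genes were compared per kilobase of exon (RPKM, from the union of exons). Averaged over the 8 livers, B2m was at 1282 RPKM, H2-K1 at 331 RPKM, H2-D1 at 175 RPKM and Cd74 at 34.5 RPKM. They were followed by H2-Eb1 at 10.8, H2-Ab1 at 9.71, Psmb8 at 7.60, H2-Aa at 6.56, Tap1 at 3.16 and Ciita at 0.0921 RPKM. Each gene was above the next in 8 of 8 livers, except that H2-Ab1 was above Psmb8 and Psmb8 above H2-Aa in 7 of 8. The order of the close neighbours rested on gene length, since with the longest transcript in place of all exons H2-Ab1 ranked 5, Psmb8 6 and H2-Eb1 7.

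Ratios within a liver showed how tightly partners kept together. H2-Eb1 per length was 1.04 to 1.16 times H2-Ab1 across the 8 livers, H2-Aa was 0.601 to 0.783 times H2-Ab1, and Cd74 was 3.19 to 4.08 times H2-Ab1. H2-K1 was 1.74 to 2.06 times H2-D1. The ratio of H2-K1 to H2-Aa, which sets class I against class II genes, ran from 36.9 in WT 1 to 85.3 in WT 3, a 2.31-fold span. The ratio of Cd74 to its regulator Ciita ran from 225 in WT 5 to 645 in WT 1, a 2.87-fold span. WT 1, the liver richest in class II chains, was thus not among those richest in Ciita, for which it had 22 reads. Among the other WT livers Ciita fell in the order WT 5, WT 2, WT 4 and WT 3, as did H2-Aa and Cd74. H2-Ab1 and H2-Eb1 differed from this only in having WT 2 above WT 5. In the Rbfox2 KO group every class II gene fell from Rbfox2 KO 1 to 2 to 3. Parts of these orders were near ties. Ciita was at 0.550 and 0.531 CPM in Rbfox2 KO 2 and 3, from 14 and 19 reads. In WT 4 and WT 3 it had 22 and 18 reads, and Cd74 was at 40.7 and 40.4 CPM there.

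Taken as class levels (the mean log2 CPM of 5 genes), class II averaged 3.85 ± 0.489 (SD, n = 5) for WT against 3.78 ± 0.351 (SD, n = 3) for Rbfox2 KO, a difference of -0.069. Class I averaged 7.51 ± 0.251 for WT against 7.51 ± 0.213 for Rbfox2 KO, a difference of -0.0040. The class II level minus the class I level took values of -3.46, -3.44, -4.21, -3.97 and -3.24 for WT 1 to 5, with -3.59, -3.72 and -3.88 for Rbfox2 KO 1 to 3. The Rbfox2 KO livers fell inside the WT range, and the group difference of -0.065 was well under the spread between livers (pooled SD 0.343). The spread between WT livers was wider for class II. The SD of log2 CPM over the 5 WT livers was 0.493 to 0.613 for the 5 class II genes, against 0.166 for H2-K1, 0.125 for H2-D1 and 0.169 for B2m, and a median of 0.22 over all tested genes. Tap1 (0.396) and Psmb8 (0.471) lay between, but these 2 values rested on WT 1. Without WT 1 the SD was 0.0938 for Tap1, 0.237 for Psmb8, 0.0723 to 0.108 for H2-K1, H2-D1 and B2m, and 0.307 to 0.570 for the class II genes. Over the 3 Rbfox2 KO livers it was 0.261 to 0.436 for class II and 0.0586 to 0.430 for class I genes, with Tap1 the highest of class I.

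**Figure D3:**
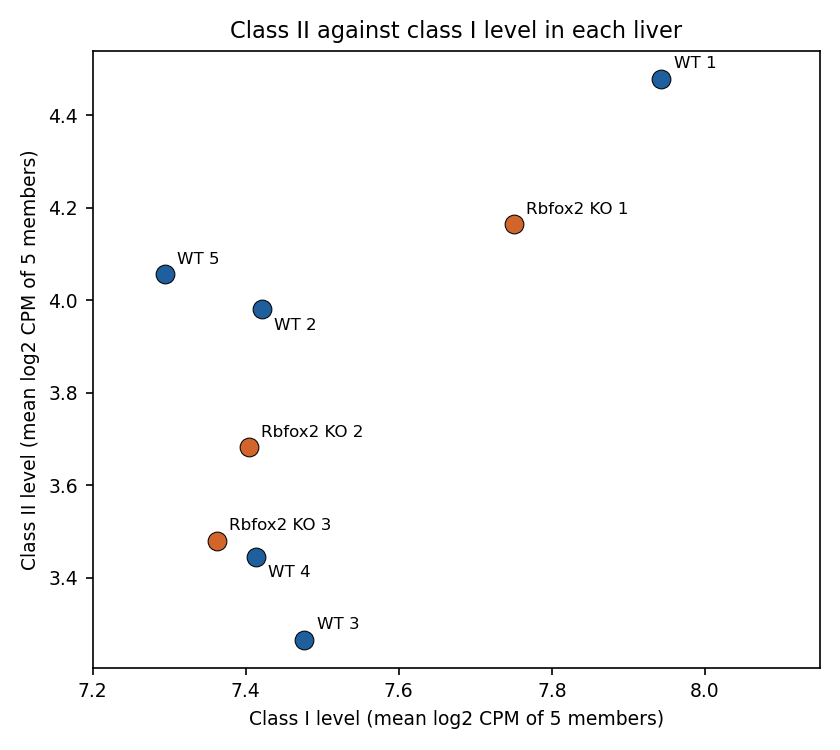
Class II level against class I level in each liver, each the mean log2 CPM of 5 genes; blue points are WT and orange points are Rbfox2 KO. WT 1 (7.94 and 4.48 on the class I and class II axes) and Rbfox2 KO 1 (7.75 and 4.16) lie at the upper right, and the other 6 livers span 7.29 to 7.48 on the class I axis and 3.27 to 4.06 on the class II axis.

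Among the WT livers WT 1, and among the Rbfox2 KO livers Rbfox2 KO 1, had the highest value for 9 of 10 members, an arrangement shown by 15% of all tested genes. The exception was Ciita, for which Rbfox2 KO 1 was also highest in its group but WT 5 and WT 2 led the WT group. WT 1 exceeded the median of the other WT livers 1.88- to 2.21-fold in H2-Aa, H2-Ab1, H2-Eb1 and Cd74, 1.78-fold in Tap1 and 1.86-fold in Psmb8, but only 1.27-fold in H2-K1, 1.19-fold in H2-D1 and 1.23-fold in B2m. These are the livers with the highest pancreatic exocrine sums, whose part in the member values was not tested. WT 1 was not the highest WT liver for Ptprc or for the summed leukocyte marker lists, whereas Rbfox2 KO 1 was the highest Rbfox2 KO liver for Ptprc and the monocyte sum. Ptprc, which encodes the pan-leukocyte antigen CD45, was at 6.38, 11.9, 5.79, 7.12 and 12.1 CPM in WT 1 to 5 and at 9.84, 6.21 and 9.61 CPM in Rbfox2 KO 1 to 3. The summed level of 7 Kupffer cell and macrophage markers was 204 to 236 CPM in WT and 214 to 289 CPM in Rbfox2 KO livers, with WT 1 at 218 CPM. That of 7 dendritic cell markers was 5.27 to 10.2 CPM in WT and 5.03 to 7.94 CPM in Rbfox2 KO livers, with WT 1 at 6.13 CPM. The sum of 5 monocyte markers was 3.54 CPM in WT 1, the lowest of the 8 livers, and 9.66 CPM in Rbfox2 KO 1, the highest. In Rbfox2 KO 1 the monocyte receptor gene Ccr2 was at 2.98 CPM, against 0.629 and 0.363 CPM in Rbfox2 KO 2 and 3, Cx3cr1 was at 2.07 CPM, against 0.157 and 0.391 CPM, and the dendritic cell integrin gene Itgax at 2.54 CPM, against 0.314 and 0.727 CPM. Other markers went the other way. Itgam and Cd14 of the monocyte list, and Clec9a, Cd209a, Zbtb46 and Siglech of the dendritic cell list, were highest in Rbfox2 KO 3 of its group. Cd14 was at 2.35, 2.83 and 3.94 CPM and Zbtb46 at 1.94, 2.75 and 3.69 CPM in Rbfox2 KO 1 to 3. Single markers led by WT 1 among the WT livers were 2 of 7 Kupffer cell, 2 of 7 dendritic cell, 1 of 6 T and NK cell and 0 of 5 monocyte markers, and those led by Rbfox2 KO 1 in its group were 2, 3, 3 and 3 of the same lists. Over all tested genes, WT 1 led its group in 30.2% and Rbfox2 KO 1 in 36.5%. The sums of 6 sinusoidal endothelial markers (122 to 145 CPM) and 6 T and NK cell markers (1.12 to 3.84 CPM) were not highest in WT 1 or Rbfox2 KO 1 over the 8 livers, and that of 4 cholangiocyte markers (2.57 to 5.58 CPM) was highest in Rbfox2 KO 1. The part of these cells in the member values was not tested.

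**Figure D4:**
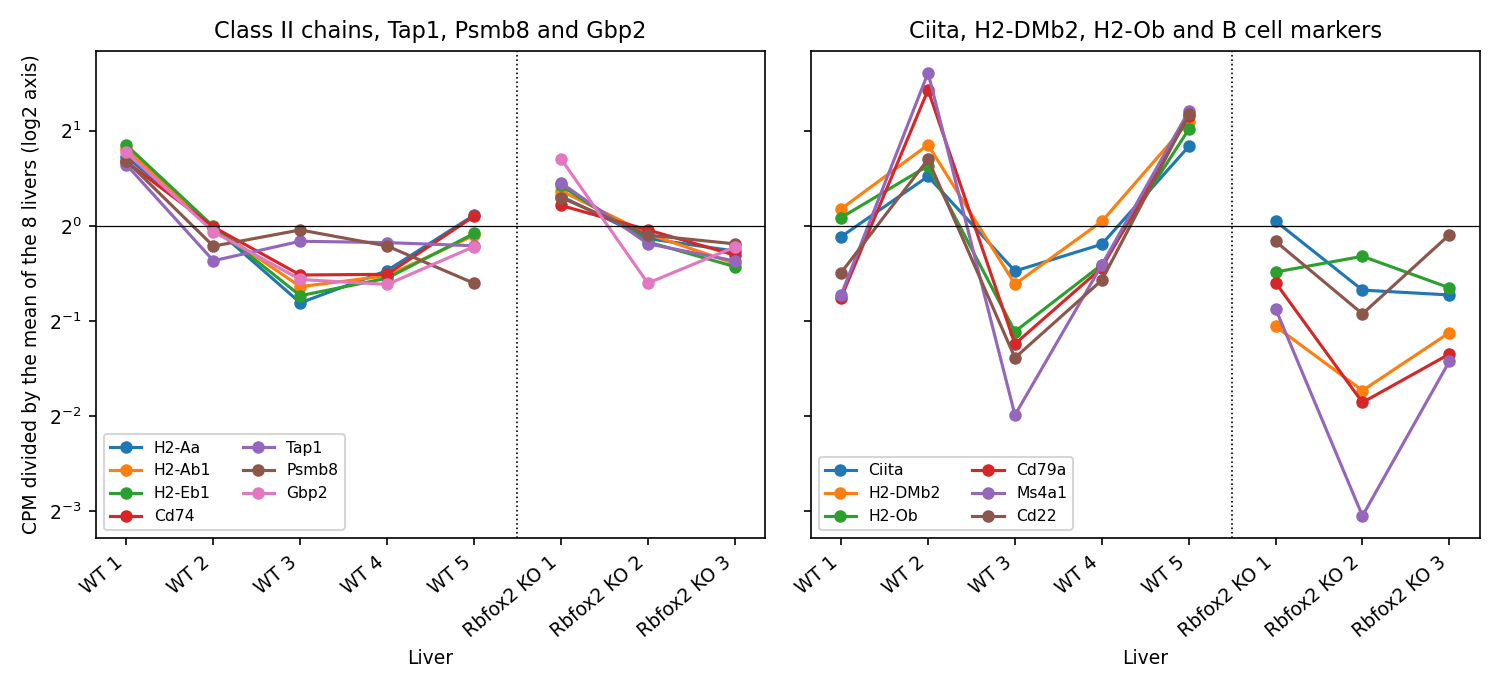
CPM of each gene divided by its mean over the 8 livers, on a log2 axis, with 1 line per gene and a dotted line between the genotypes; lines join the values of a gene and imply no order of livers. On the left, class II chains, Cd74, Tap1, Psmb8 and Gbp2 are highest in WT 1 and Rbfox2 KO 1; on the right, Ciita, H2-DMb2, H2-Ob and 3 B cell markers are highest in WT 2 and WT 5.

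In the lists of other genes of each pathway, 0 genes passed the adjusted threshold. Of 12 class II pathway genes 11 were tested, 6 with an estimate above 0 and 5 below, at a median log2 fold change of 0.12 against 0.00096 over all tested genes. H2-Eb2, at 0.0279 to 0.443 CPM, was too low to test. WT 1 was the highest WT liver for 5 of the 12, against 30.2% of all tested genes. Rbfox2 KO 1 was the highest Rbfox2 KO liver for 10 of the 12, against 36.5% of all tested genes. Only H2-DMb2, a β chain of the peptide-loading chaperone H2-M, had an unadjusted p under 0.05. H2-DMb2 was at 1.03, 1.65, 0.597, 0.943 and 1.95 CPM in WT 1 to 5 and at 0.439, 0.275 and 0.419 CPM in Rbfox2 KO 1 to 3. All Rbfox2 KO livers were below all WT livers, with a log2 fold change of -1.69 (SE 0.41, edgeR adjusted p = 0.525, DESeq2 adjusted p = 0.0664), and WT 5 and WT 2 were the highest livers, as for Ciita and the B cell markers. The B cell markers were also lower in Rbfox2 KO by their estimates, and the part of B cells in the H2-DMb2 values was not tested. Its close copy H2-DMb1 was at 2.56 to 5.17 CPM in WT and 2.16 to 4.77 CPM in Rbfox2 KO livers, highest in WT 1 and Rbfox2 KO 1, and reads of this pair could be exchanged in counting. H2-Ob, the β chain of the H2-M inhibitor H2-O and a gene of B cells, was at 0.886, 1.29, 0.386, 0.629 and 1.68 CPM in WT 1 to 5 and at 0.596, 0.668 and 0.531 CPM in Rbfox2 KO 1 to 3, again highest in WT 5 and WT 2. The endosomal proteases Lgmn and Ctss, which degrade antigen and the invariant chain, had log2 fold changes of 0.27 (adjusted p = 1) and 0.26 (adjusted p = 1). Both estimates rested on Rbfox2 KO 1, where Lgmn reached 69.6 CPM (other livers 44.5 to 53.7 CPM) and Ctss 51.1 CPM (other livers 27.5 to 35.0 CPM), and without WT 1 and Rbfox2 KO 1 their log2 fold changes were 0.11 and -0.032.

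All 12 class I pathway genes were tested, 6 with an estimate above 0 and 6 below, at a median log2 fold change of -0.018. Rbfox2 KO 1 was the highest Rbfox2 KO liver for 5 of the 12, against 36.5% of all tested genes. WT 1 was the highest WT liver for 7 of the 12, against 30.2% of all tested genes. These included Psmb9, an immunoproteasome subunit like Psmb8, at 25.7 CPM in WT 1 and 9.69 to 12.3 CPM in the other WT livers, and at 16.4, 10.5 and 9.87 CPM in Rbfox2 KO 1 to 3. Psmb9 overlaps the 5′ end of Tap1 on the opposite strand, and whether strand was used in counting is not given in the sources used here. Tap2, the partner of Tap1 in the transporter, was at 27.4 CPM in WT 1 and 15.7 to 17.7 CPM in the other WT livers. Tapbp (tapasin), which bridges class I chains to the transporter, was likewise highest of each group in WT 1 (61.6 CPM) and Rbfox2 KO 1 (61.9 CPM). Calr, Canx and Pdia3, more general chaperones of the endoplasmic reticulum, were arranged the other way. Calr, which encodes calreticulin, was at 361, 468, 530.2, 481 and 444 CPM in WT 1 to 5 and at 294, 435 and 347 CPM in Rbfox2 KO 1 to 3, lowest in WT 1 and Rbfox2 KO 1 of their groups, with a log2 fold change of -0.35 (95% interval -0.70 to -0.0033, adjusted p = 1). Pdia3, the thiol oxidoreductase ERp57, had a log2 fold change of -0.31 (95% interval -0.68 to 0.052, adjusted p = 1), and Rbfox2 KO 1 was its lowest liver at 221 CPM.

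Of the 10 nonclassical class I genes and relatives tested, 7 had an estimate above 0 and 3 below, at a median of 0.015. WT 1 led the WT livers for 8 of the 10 and Rbfox2 KO 1 its group for 6, against 30.2% and 36.5% of all tested genes. H2-Q10, a secreted class I heavy chain made by hepatocytes, was the highest of the list per length, at 2046, 1615, 1454, 1657 and 1553 CPM in WT 1 to 5 and at 2037, 1746 and 1495 CPM in Rbfox2 KO 1 to 3. WT 1 and Rbfox2 KO 1 were its 2 highest livers, and its log2 fold change was 0.079 (95% interval -0.26 to 0.42). H2-M3, which presents N-formylated peptides, was at 1.79 to 2.30 CPM in WT and 2.36 to 2.63 CPM in Rbfox2 KO livers, separate ranges with a log2 fold change of 0.27 (adjusted p = 1). Mr1, which presents metabolites to MAIT cells, was at 2.21 to 3.49 CPM in WT and 1.94 to 2.71 CPM in Rbfox2 KO livers, with a log2 fold change of -0.37 (adjusted p = 1).

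Of 7 genes for RFX, NF-Y and CREB proteins, the promoter-binding partners of CIITA, 4 had an estimate above 0 and 3 below, at a median of 0.078. WT 1 led the WT livers for 1 of the 7 and Rbfox2 KO 1 its group for 1. Creb1 was at 9.58 to 11.3 CPM in WT and 11.1 to 12.3 CPM in Rbfox2 KO livers (log2 fold change 0.20, adjusted p = 1). Nfya was at 6.57 to 8.89 and 6.11 to 7.13 CPM (log2 fold change -0.22, adjusted p = 1), and Nfyb at 20.3 to 25.4 and 18.3 to 24.2 CPM (log2 fold change -0.060, adjusted p = 1).

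Among 11 genes of the interferon-γ axis, 6 had an estimate above 0 and 5 below, at a median of 0.027. Igtp, an interferon-induced GTPase and the highest of the list per length, was at 68.4, 27.4, 29.6, 25.5 and 22.6 CPM in WT 1 to 5 and at 32.9, 23.9 and 27.5 CPM in Rbfox2 KO 1 to 3. WT 1 was 2.59 times the median of the other WT livers for Igtp, and Rbfox2 KO 1 was the highest Rbfox2 KO liver. Gbp2, another interferon-induced GTPase, was at 8.86 CPM in WT 1 and 8.46 CPM in Rbfox2 KO 1, while the remaining 6 livers had 3.39 to 4.97 CPM. The receptor chain gene Ifngr2 was at 15.5 to 18.2 CPM in WT and 17.1 to 21.8 CPM in Rbfox2 KO livers (log2 fold change 0.17, adjusted p = 1), and the inhibitor Socs1 at 0.175 to 0.502 and 0.196 to 0.314 CPM (log2 fold change -0.50, adjusted p = 1). WT 1 was the highest WT liver for 5 of the 11 genes and Rbfox2 KO 1 the highest Rbfox2 KO liver for 7, against 30.2% and 36.5% of all tested genes.

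**Figure D5:**
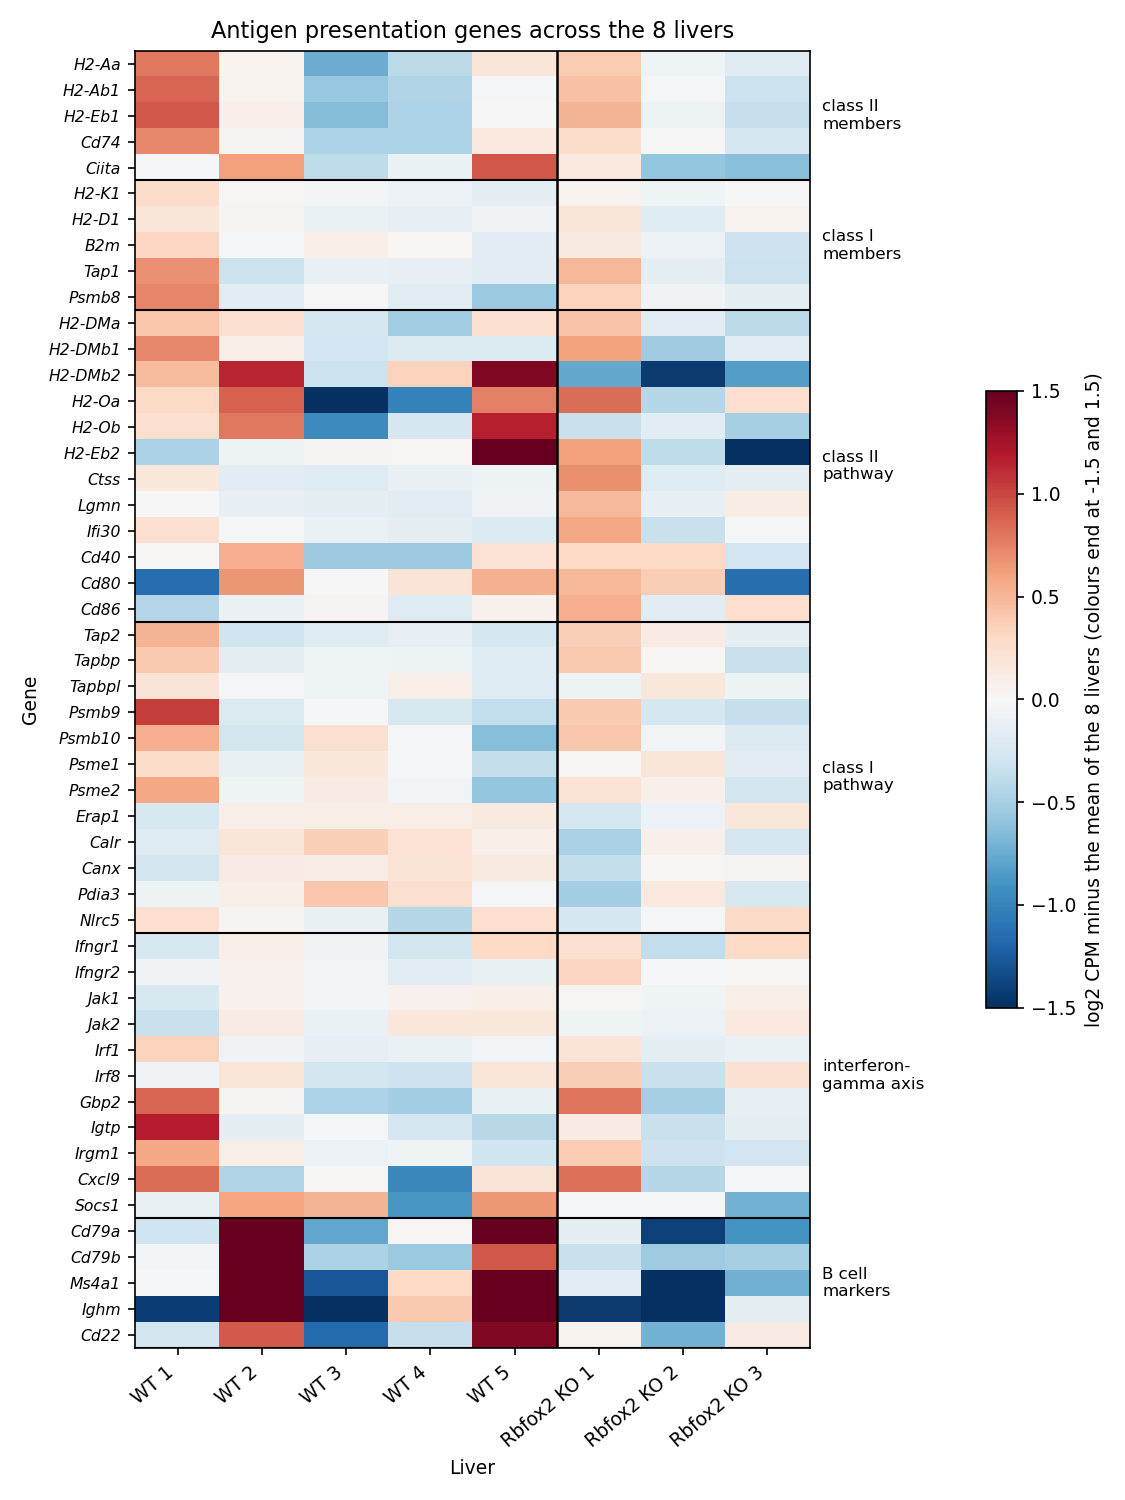
Log2 CPM of each gene minus its mean over the 8 livers, for the 10 members, 3 pathway lists and the B cell markers; red is above and blue below the mean, and colours end at -1.5 and 1.5. Red cells in the WT 1 and Rbfox2 KO 1 columns run from the class II and class I members into Psmb9, Tap2, Gbp2 and Irgm1, while Ciita, H2-DMb2, H2-Ob and the B cell markers are red in WT 2 and WT 5.

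Outside these lists, the genes most like each class were ranked by Pearson's r of log2 CPM over the 8 livers, centred within each genotype, among 12328 genes with a mean of at least 1 CPM. These values describe likeness only, since all points share their libraries and scaling. For class II the 5 closest were P2ry14 (r = 0.984), Neurl3 (r = 0.982), Ankmy2 (r = 0.979), Zfp362 (r = 0.973) and Pdk2 (r = 0.967), with Spearman's rho of 0.952 to 1. P2ry14 encodes a receptor for UDP-glucose and was at 1.40, 1.001, 0.737, 0.803 and 1.12 CPM in WT 1 to 5 and at 1.19, 1.02 and 0.838 CPM in Rbfox2 KO 1 to 3. Pdk2 encodes a pyruvate dehydrogenase kinase, the most abundant of these 5 at 38.5 to 49.5 CPM. For class I the 5 closest were Haus1 (r = 0.998), Trim34a (r = 0.993), Tprgl (r = 0.993), Psmb9 (r = 0.992) and Tmem60 (r = 0.986), with rho of 0.81 to 0.976. Without the 2 livers farthest from the median (WT 1 and WT 3 for class II, WT 1 and Rbfox2 KO 1 for class I), r was 0.953 to 0.979 for the class II set and 0.814 to 0.967 for the class I set. An r above 0.9 was reached by 43 genes (0.349%) for class II and by 308 genes (2.5%) for class I.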

How the data were processed

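The 10 genes and the gene lists were chosen with earlier results of these data known. Livers of 5 WT and 3 Rbfox2 KO mice were measured by poly(A)-selected, paired-end RNA-seq, with groups and numbers as the labels give them. The deposited table holds raw counts per Ensembl gene. The authors made these counts by aligning reads to GRCm38 with TopHat2 2.0.11 as strand-specific libraries and counting with featureCounts (CASAVA 1.8.4 is also listed in the submitters' processing notes). The use of strand in counting and the treatment of reads with several alignments are not given in the sources used here. Of the sample columns, 0 were left without a sample.

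Symbols, positions and exon lengths were taken from GENCODE M21, in which 45143 of 46078 genes had a symbol. Genes were filtered with filterByExpr, which left 14654, and scaled by TMM factors (0.821 to 1.28). Genotype was tested with the robust quasi-likelihood test of edgeR 4.0.16 in R 4.3.3, two-sided, with Benjamini-Hochberg adjustment over all tested genes at 0.05. Standard errors and 95% intervals came from the moderated quasi-dispersion. Class levels used log2 CPM with a prior count of 2 and were not tested. P-values set the genotype difference against the spread between these mice, moderated across genes, and the floors of 3 counts cover counting error only. Replicates within a group differed by more than sampling noise (chi-square per degree of freedom 41.8 to 318).

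Other genes were named by rule: in each pathway list those past the threshold, the 2 with the smallest p and the 1 with the highest level per length, and the 5 most like each class. Tap2, Psmb9, H2-DMb1, H2-Eb2, H2-Ob, Gbp2 and the cell type markers were named beside these for their arrangement over livers, which had been seen. The values of 2 genes of the lists are not reported here and enter no count or sum of a list. Promoters came from RefSeq (GRCm38.p6), from 200 to 1 bases before the start nearest the annotated one. On simulated counts for 14654 genes edgeR called 72 of 100 genes altered by a log2 difference of 1 and 97 of 100 altered by 2, with 11 false among 180 calls, and its 95% intervals covered 95.4% of true values. DESeq2 found 78 and 99, with 32 false among 209 calls. Alternatives covered scaling by DESeq2 size factors or library totals, no filter, DESeq2 1.42.0, limma-voom (limma 3.58.1), the sample number as a block, each sample left out, and the definition of the class levels.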

Additional observations from a re-analysis of the deposited data

Results flagged for a closer look

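Of 49 values examined in the 5 WT livers, 10 had 1 liver separated from the rest by more than the Dixon limit of 0.71 (the gap to the nearest liver as a share of the whole range). Chance would give about 2.45 of 49 for values chosen without regard to the livers, which does not hold here, since many of these genes were picked or ranked from the same livers. In 9 of these WT 1 was the high liver. They were Tap1 (0.849), Psmb9 (0.836) and the class I level (0.719), the interferon-induced Igtp (0.847), the genes most like class I, Haus1 (0.788), Trim34a (0.804), Tprgl (0.733) and Tmem60 (0.766), which had been chosen for likeness to the same livers, and the summed pancreatic exocrine markers (0.959). The tenth was the summed dendritic cell markers, with WT 5 high (0.711). The 10 values are not independent of each other.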

How the results depend on the processing

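The members past the threshold stayed at 0 in every other fit that was run. The genes past the threshold were 6 without a filter and 59 with DESeq2, and Rbfox2 (-1.03) passed with DESeq2. Ciita kept its direction in every fit and B2m in all but that on library totals, whereas the other 8 members, at estimates near 0, did not. Scaling by library totals shifted the median over all tested genes to 0.115 (log2) and gave H2-Aa 0.112, H2-Ab1 0.136, H2-Eb1 0.127, Cd74 0.0747, H2-K1 0.111, B2m 0.00251 and Nfyb 0.0425. Without a filter H2-Aa was 0.000484, H2-Ab1 0.00754 and H2-K1 0.000884. With limma-voom H2-Aa was 0.0625, H2-Ab1 0.0582, H2-Eb1 0.0482 and Cd74 0.00865. Without WT 1 and Rbfox2 KO 1, a choice made after seeing the data, H2-Aa was 0.0402, H2-Ab1 0.0523, H2-Eb1 0.00622, Cd74 0.0283, H2-K1 0.0269, H2-D1 -0.00988, Tap1 -0.0571, Ctss -0.0319 and Nfyb 0.00411. The cause was not tested in any of these.

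Leaving out each sample in turn gave ranges of -0.209 to 0.233 for H2-Aa, -0.241 to 0.285 for H2-Ab1, -0.307 to 0.29 for H2-Eb1, -0.193 to 0.17 for Cd74, -0.0489 to 0.0583 for H2-K1, -0.0593 to 0.125 for H2-D1, -0.275 to 0.231 for Tap1, -0.134 to 0.269 for Psmb8, -0.0928 to 0.41 for Ctss, -0.0453 to 0.183 for H2-Q10, -0.159 to 0.0339 for Nfyb and -0.436 to 0.0929 for Igtp. Ciita stayed below 0 (-0.911 to -0.386), as did H2-DMb2 (-1.86 to -1.46) and Rbfox2 (-1.30 to -0.852). The class II level difference ran from -0.269 to 0.0835, class I from -0.132 to 0.0992 and class II minus class I from -0.202 to 0.041, each within the spread between livers. Class II turned to 0.0348 with library totals, 0.0296 with summed CPM and 0.0436 without Ciita, class I to 0.102 with library totals, and class II minus class I to 0.0855 with summed CPM and 0.0583 without Ciita, H2-K1 and H2-D1. Of 175 values of single genes under other settings, 148 kept their direction and side of the threshold.

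Samples of both groups share numbers 1 to 3, but these are different mice and the labels name no pairing, so the numbers were not taken as pairs. Same-numbered livers had correlations of deviations from group means of 0.163, 0.0484 and 0.17 (mean 0.127). Livers of different numbers had -0.412 to 0.371 (mean -0.0313). These few values do not decide whether the numbers mark pairs. With the number as a replicate block 0 genes passed, 739 had an unadjusted p under 0.05 against 694 without it, and H2-D1 was -0.0217, Tap1 -0.075 and Psmb8 -0.14. Within numbers 1 to 3 the class II level difference was -0.132, class I -0.108 and class II minus class I -0.0245. Depth limits Ciita and H2-DMb2, at around 1 CPM.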

Other observations

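H2-Ea-ps, the α chain locus of I-E, had 0 counts in all 8 livers, while H2-Eb1, the β chain of the same molecule, had 360 to 1025 counts. A count of 0 allows up to 0.0838 to 0.118 CPM. The gene was chosen after its values were seen. The MHC haplotype of these livers is not given in the sources used here. Mice of the b haplotype, such as C57BL/6J, are known to carry a deletion that silences this α chain and so lack I-E at the cell surface. Whether these livers carry this deletion was not tested.

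Marco, a scavenger receptor of Kupffer cells and macrophages, was at 9.89, 9.01, 11.4, 9.60 and 13.4 CPM in WT 1 to 5 and at 22.2, 18.5 and 30.9 CPM in Rbfox2 KO 1 to 3. Every Rbfox2 KO liver was above every WT liver, with a log2 fold change of 1.16 (SE 0.18) that did not pass adjustment in edgeR (adjusted p = 0.138). Of the 7 Kupffer cell and macrophage markers, 6 had an estimate above 0 and Clec4f one below it, at a median log2 fold change of 0.19, and 0 passed adjustment in edgeR. Cd5l was at 67.2 to 75.6 CPM in WT and 73.1 to 115 CPM in Rbfox2 KO livers (log2 fold change 0.44, adjusted p = 0.864), and Clec4f at 65.5 to 76.3 and 63.4 to 75.5 CPM. The part of these cells in the class II values was not tested.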
